A study of Mus musculus with 14 samples.

Results

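The genes described here build sterols and fatty acids. They are 34 mouse genes chosen by name, each matched to 1 row of the deposited count table by its Ensembl identifier, out of 46078 genes listed. All 34 passed the filter on low counts and were tested among 26990 genes. They comprise 7 genes of the mevalonate steps, 11 genes that carry squalene to cholesterol, 5 genes of sterol sensing and transport, 4 genes of fatty acid chain synthesis and 7 genes that elongate or desaturate fatty acids. Bulk RNA-seq was made from bone marrow of 8-week-old C57BL/6 mice, 2000 sorted cells per library, in 4 groups. The groups were cKO iILC1 (Vav-Cre;Il-15-flox/KO, n = 4), control iILC1 (Il-15-flox/KO, n = 3), cKO iNK (Vav-Cre;Il-15-flox/KO, n = 4) and control iNK (Il-15-flox/KO, n = 3). The Vav promoter drives Cre in blood-forming cells and their descendants, so in the cKO the floxed Il15 allele is the target in those cells. These data do not check in which cells it was deleted. Controls also carry a knockout allele of Il15 beside the floxed allele and have no Cre, so no group is wild type. The immature NK (iNK) gate took cells with NK1.1, DX5 and CD27 and without CD3, IL-7Ra and CD11b, and the immature ILC1 (iILC1) gate took CD3-negative cells with NK1.1, IL-7Ra and CD49a. The labels do not say that replicates came from separate mice, so p-values measure the spread between these libraries only.

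As background, cells make cholesterol from acetyl-CoA through mevalonate, farnesyl pyrophosphate, squalene and lanosterol. When sterols in the endoplasmic reticulum are scarce, the escort protein SCAP carries the SREBP transcription factors to the Golgi, where they are cleaved and become active, and INSIG proteins hold SCAP back when sterols are plentiful. Fatty acid synthesis starts from cytosolic acetyl-CoA, and ELOVL enzymes then lengthen the chains while SCD and FADS enzymes add double bonds. In NK cells SREBP proteins are known for their role in the metabolic response to activating cytokines.

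The promoters are shown for 3 members that differ in the motifs they hold and that appear in the comparisons below. Each is the RefSeq window (GRCm38.p6) of 250 bases before to 50 bases after the gene start, written 5′ to 3′ on the gene's strand, and such windows were found for 27 of the 34 members. Capitals mark matches on either strand to the sterol regulatory element TCACNCCAC, the CCAAT box and the GC box GGGCGG. Hmgcs1, the cytosolic HMG-CoA synthase and a textbook SREBP target, spans chr13:119690101-119690400 on the plus strand. Ebp, the sterol isomerase, spans chrX:8193463-8193762 on the minus strand, and Elovl6, the elongase of long saturated chains, spans chr3:129532136-129532435 on the plus strand.
Hmgcs1: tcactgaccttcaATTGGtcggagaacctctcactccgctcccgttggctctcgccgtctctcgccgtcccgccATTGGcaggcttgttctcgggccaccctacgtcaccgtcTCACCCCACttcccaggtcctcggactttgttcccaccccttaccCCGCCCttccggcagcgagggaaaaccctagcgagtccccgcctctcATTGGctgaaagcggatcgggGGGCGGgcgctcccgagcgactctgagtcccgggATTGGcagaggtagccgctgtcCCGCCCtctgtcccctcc
Ebp: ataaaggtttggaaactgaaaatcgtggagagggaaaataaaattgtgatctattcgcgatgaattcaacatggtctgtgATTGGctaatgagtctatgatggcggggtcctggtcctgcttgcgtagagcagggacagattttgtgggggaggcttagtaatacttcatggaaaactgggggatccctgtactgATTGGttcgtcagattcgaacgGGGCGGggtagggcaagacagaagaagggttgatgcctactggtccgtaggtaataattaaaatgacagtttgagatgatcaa
Elovl6: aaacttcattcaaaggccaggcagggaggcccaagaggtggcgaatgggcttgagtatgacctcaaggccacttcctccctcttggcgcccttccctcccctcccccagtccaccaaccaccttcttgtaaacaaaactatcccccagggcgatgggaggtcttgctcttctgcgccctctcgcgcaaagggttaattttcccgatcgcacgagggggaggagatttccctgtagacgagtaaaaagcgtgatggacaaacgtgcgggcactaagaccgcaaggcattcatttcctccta
The sterol element was present in 1 of 27 member windows, that of Hmgcs1, where it begins 137 bases before the start, and in 1.44% of the windows of 27025 genes. The CCAAT box was present in 22 of 27 member windows (81.5%), against 41.1% of all windows. The GC box was also present in 22 of 27 member windows, against 38.2% of all windows. The E-box CACGTG, which SREBP1 can also bind, was present in 6 of 27 member windows (22.2%), against 8.09% of all windows. The Elovl6 window held none of the 4 motifs. The shares over all windows were not limited to genes tested here, while every member was tested. No motif contains the letters of another, and a match is a description of these letters only.

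Library totals ran between 3512796 and 12572326 counts, so that 1 count was worth 0.0852 to 0.292 CPM, the count scaled to the TMM-adjusted library total. The control iILC1 libraries, at 3512796 to 4933284 counts, were all shallower than those of the other groups, which had 5478641 counts or more. Genes for some of the gate markers differed between the sorted populations in the direction of the gates. In iILC1 against iNK, Il7r was higher in cKO (log2 fold change 4.85) and in control (5.60), past the adjusted threshold. Itga1, which encodes CD49a, was likewise higher in both (2.44 and 2.37). Eomes, which is in neither gate, was lower in both (-3.09 and -2.47), also past the threshold. Cd27 was not called in either genotype. Itgam, which encodes the CD11b that the iNK gate excluded, was not called either, and its estimates were lower in iILC1 in both genotypes. Counts over all exons of the targeted gene Il15 were 11.2 to 25.0 CPM in cKO iILC1, 11.7 to 13.7 in control iILC1, 8.58 to 12.3 in cKO iNK and 8.16 to 11.1 in control iNK. They were not lower in libraries labelled cKO, and since the labels do not name the floxed exons, this sum does not check the genotype labels. Replicate libraries of a group differed by more than counting noise in every pair (chi-square per degree of freedom 4.45 to 23.4). Library cKO iILC1 replicate 1 was the highest of its group for 23 of 34 members (67.6%) and for 69.6% of genes whose mean reached 10 CPM. In these bulk libraries, fewer cells of a type and less RNA per cell cannot be told apart.

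The members covered a wide range of abundance. Averaged over the 14 libraries, Acly, the ATP citrate lyase that makes cytosolic acetyl-CoA, had the highest level at 71.6 CPM per kb of exon. It was followed by the elongases Elovl5 (42.9 CPM per kb) and Elovl1 (40.2), the desaturase Scd2 (38.9) and the fatty acid synthase Fasn (38.4). The level of Scd2 differed between the cell types, with 22.4 CPM per kb in cKO iILC1, 15.4 in control iILC1, 64.4 in cKO iNK and 50.5 in control iNK, so its place in this pooled order describes neither of them. The transcription factor gene Srebf2 had 27.3 CPM per kb and Srebf1 had 20.6, 16.4, 19.6 and 23.6 CPM per kb in cKO iILC1, control iILC1, cKO iNK and control iNK. The lowest levels were those of Fdps (0.968 CPM per kb), the farnesyl pyrophosphate synthase, Scd1 (1.43) and Hsd17b7 (1.85). For scale, 1318 odorant and vomeronasal receptor genes, which blood cells are not known to use, had group medians of 0.761 to 1.23 CPM per kb and 95th percentiles of 3.54 to 4.84 CPM per kb. Below that percentile in their own group lay 12 of 34 members in cKO iILC1, 14 in control iILC1, 12 in cKO iNK and 7 in control iNK. Fdps, Sqle, Lss, Tm7sf2, Hsd17b7, Scd1 and Fads2 were below it in all 4 groups, so their values lie within the range of this background.

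**Figure D1:**
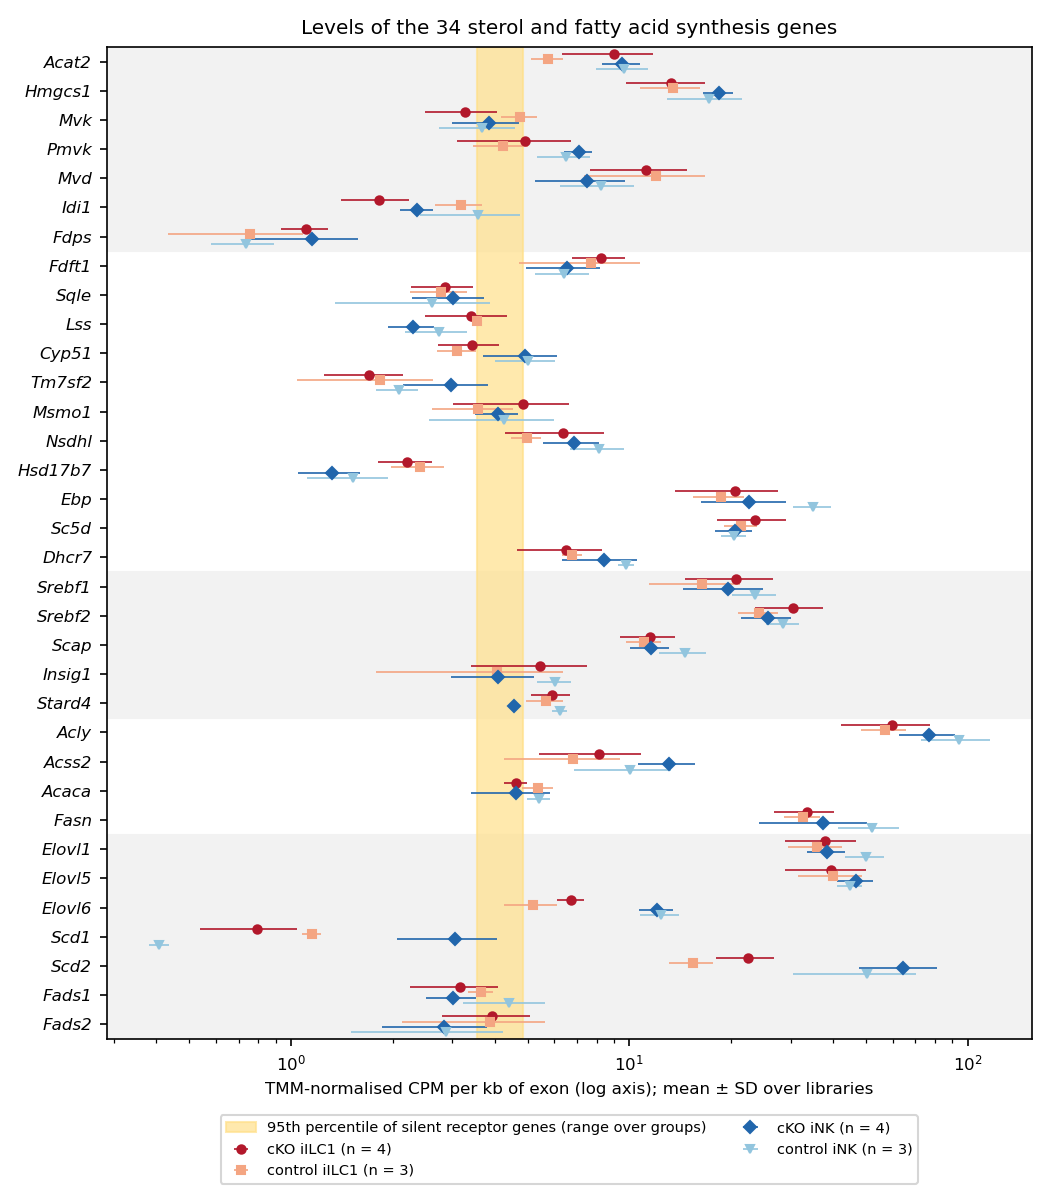
Mean level of each of the 34 genes in the 4 groups, in TMM-normalised CPM per kb of exon on a log axis, with SD over 3 or 4 libraries, ordered by pathway step in shaded bands. Acly is highest at 71.6 CPM per kb on average, and the yellow band marks the 95th percentile of receptor genes that these cells are not known to use (3.54 to 4.84 CPM per kb).

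Several members share sequence with other genes. With 50-base probes along the GENCODE M21 transcripts, 39.1% of the probes of Acat2 were also found in other genes, chiefly Acat3. The share was 30.4% for Acaca, 26.5% for Fdft1, 26.2% for Fdps and 25.3% for Idi1, each with other annotated genes. How far this affects the values of these 5 genes was not tested, since how reads that match several genes were counted is not given. Scd1 shared 4.56% of its probes, with Scd3, Scd2 and Scd4, Scd2 shared 3.97% and Elovl6 3.98%, while Ebp shared 0%. The library kits do not mark strand, so Fdft1, whose exons overlap Ctsb on the opposite strand over 26.8% of their length, could not be separated from it there.

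The next question was whether loss of Il15 in blood-forming cells moved the pathway. In iNK cells the change was at Scd1, the stearoyl-CoA desaturase that makes oleate. Scd1 (ENSMUSG00000037071, mm10 chr19:44394451-44407709, minus strand) had 15.9, 13.4, 20.7 and 9.11 CPM in cKO iNK, against 1.87, 2.13 and 1.92 CPM in control iNK. Every cKO library was above every control library, and the raw counts behind these values were 104, 97, 159 and 107 in cKO iNK, against 12, 13 and 12 in control iNK. The fitted level was 7.41-fold higher in cKO iNK (log2 fold change 2.89 ± 0.39 SE, 95% interval 2.101 to 3.68, adjusted p 7.93e-05 by edgeR's quasi-likelihood test with Benjamini-Hochberg adjustment over all genes). Per kb this was a rise to 3.06 CPM in cKO iNK, against 0.408 CPM in control iNK, both under the receptor percentile given above.

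**Figure D2:**
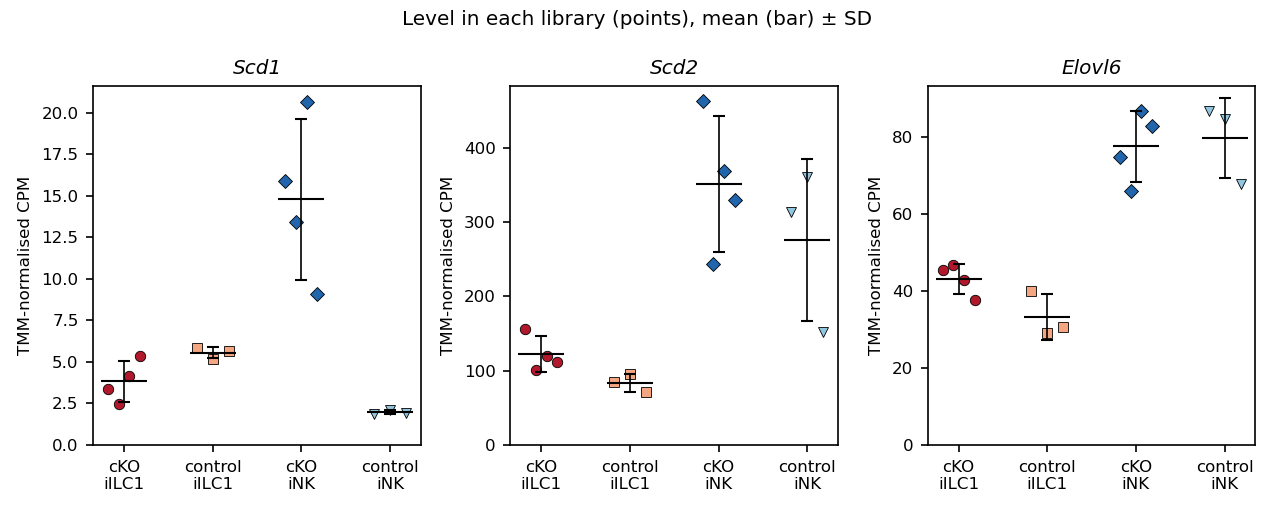
Level of Scd1, Scd2 and Elovl6 in each of the 14 libraries, in TMM-normalised CPM on linear axes that start at 0, with the mean as a bar and the SD as whiskers. The 4 cKO iNK libraries hold the highest Scd1 values (9.11 to 20.7 CPM), while all 7 iILC1 libraries lie below all 7 iNK libraries for Elovl6.

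The remaining 33 members gave no call in iNK cells. Members past the threshold were 1 of 34 (Scd1, higher), where 0.408% of all genes tested were called and 0.892% of genes whose mean reached 10 CPM. Libraries of the groups did not overlap for 5 members, where this held for 8.84% of all genes. These were Scd1, higher in cKO, and Ebp, Insig1, Stard4 and Elovl1, lower in cKO, and none of the last 4 passed the test. Ebp had 61.8, 36.5, 43.4 and 67.4 CPM in cKO iNK, against 82.8, 90.1 and 69.6 CPM in control iNK (log2 fold change -0.63 ± 0.24 SE, adjusted p 0.458 by edgeR). Stard4, a carrier of cholesterol between membranes, had 26.2, 25.1, 25.7 and 25.1 CPM in cKO iNK, against 34.8, 32.9 and 36.5 CPM in control iNK. Its libraries lay close together within each genotype, and its log2 fold change was -0.44 ± 0.20 SE (adjusted p 0.583). The median log2 fold change of the 34 members was -0.11, against 0.06 over all genes tested and -0.09 over genes whose mean reached 10 CPM.

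By pathway step in iNK cells, all 5 sensing and transport genes had negative estimates, between -0.56 for Insig1, which retains SCAP in the endoplasmic reticulum, and -0.15 for Srebf2, and none passed the test. All 5 were also negative with RLE and upper-quartile factors and with DESeq2. Their summed level was 287 to 436 CPM in cKO iNK, against 379 to 478 CPM in control iNK, and these ranges overlapped. The 7 mevalonate genes ran between -0.60 (Idi1, isopentenyl diphosphate isomerase) and 0.65 (Fdps). The 11 genes after squalene ran between -0.63 (Ebp) and 0.51 (Tm7sf2, a sterol reductase). Of the chain synthesis genes, Fasn had 520, 299, 424 and 227 CPM in cKO iNK, against 602, 540 and 395 CPM in control iNK, with overlapping groups (-0.48 ± 0.25 SE, adjusted p 0.673). Scd2, the second stearoyl-CoA desaturase, had a log2 fold change of 0.35 ± 0.26 SE (95% interval -0.18 to 0.88, adjusted p 0.774) in iNK cells. The interval for Scd2 lies below that for Scd1. The FADS desaturases and the elongases gave no call.

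Other transcripts that moved with the Scd1 difference are given here for reading beside it. In this comparison 0.408% of all genes were called. Of 19 B lineage markers, 12 were called higher and 0 lower in cKO iNK than in control iNK. All 19 estimates were higher, with a median log2 fold change of 2.66, and no marker was at 0 in all libraries of a group. The summed level of the B lineage markers was 1009 to 1564 CPM in cKO iNK, against 451 to 678 CPM in control iNK. The defining B cell gene Cd79a, part of the B cell receptor, had 24.3 to 52.3 CPM in cKO iNK, against 1.44 to 4.84 CPM in control iNK. Of 13 erythroid and megakaryocyte markers, 2 (Hbb-bs and Hbb-bt) were called higher in cKO iNK (Hbb-bs was not called with upper-quartile factors, nor Hbb-bt with DESeq2). Estimates of these 13 were higher for 9 and lower for 4. The summed level was 287 to 884 CPM in cKO iNK, against 372 to 429 CPM in control iNK. Of 35 cell division genes, 6 were called lower in cKO iNK and 0 higher (17 lower with DESeq2 and 3 with upper-quartile factors). All 35 estimates were lower, with a median log2 fold change of -0.81. The sums of these genes were 2243 to 2855 CPM in cKO iNK, against 3923 to 5757 CPM in control iNK. Of 16 NK and ILC1 identity genes, Il7r was called higher in cKO iNK and 0 were called lower, with estimates higher for 6 and lower for 10. DESeq2 also called Itgam and Ncr1 lower, and upper-quartile factors called Itgam lower. No marker of the myeloid, T cell, or stroma and fat lists passed the test in this comparison. Of 14 genes of IL-15 and mTORC1 response, 5 (Socs2, Gzmb, Bcl2l1, Slc7a5 and Cish) were called lower in cKO iNK. Estimates of the 14 were lower for 12 and higher for 2. The part of these differences in the Scd1 result was not tested.

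In iILC1 cells no member passed the threshold for genotype, in edgeR or in DESeq2, and 3 of 34 had an unadjusted p under 0.05 in edgeR, where 4.52% of all genes did. Over all genes 0.0482% were called in this comparison. Idi1 had 7.75, 7.47, 4.93 and 5.34 CPM in cKO iILC1, against 12.9, 11.1 and 9.34 CPM in control iILC1 (log2 fold change -0.79 ± 0.31 SE, adjusted p 0.979 by edgeR). Acat2, the cytosolic acetyl-CoA acetyltransferase, had 30.4, 23.1, 13.8 and 24.4 CPM in cKO iILC1, against 16.1, 12.9 and 14.8 CPM in control iILC1, with overlapping groups (0.66 ± 0.26 SE, adjusted p 0.979). Scd2 had 156, 101, 120 and 112 CPM in cKO iILC1, against 85.1, 95.4 and 71.1 CPM in control iILC1, without overlap (0.55 ± 0.27 SE, adjusted p 0.979). Idi1 and Acat2 are among the genes with shared sequence. Libraries did not overlap for 3 members (Scd2 higher, Mvk and Idi1 lower in cKO), where this held for 5.48% of all genes. The median over the members was 0.06, against 0.01 over all genes and 0.12 over genes whose mean reached 10 CPM.

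Scd1 in iILC1 cells had 3.39, 2.45, 4.14 and 5.34 CPM in cKO iILC1, against 5.85, 5.17 and 5.68 CPM in control iILC1. The groups overlapped, and the log2 fold change was -0.54 ± 0.36 SE (95% interval -1.27 to 0.19, adjusted p 0.979 by edgeR). The difference between the genotype effects, in iILC1 minus in iNK, was -3.43 ± 0.52 SE on the log2 scale for Scd1 (95% interval -4.49 to -2.36, adjusted p 0.00199 by edgeR). Scd1 was the only member of 34 past the threshold for this difference, where 0.0778% of all genes were called. The members next in order were Ebp at 0.77 ± 0.35 SE and Insig1 at 1.01 ± 0.47 SE, both with an adjusted p of 0.705. Insig1 had 25.8, 14.4, 11.1 and 16.0 CPM in cKO iILC1, 20.2, 11.3 and 6.23 CPM in control iILC1, 16.4, 8.18, 12.1 and 14.1 CPM in cKO iNK, and 21.1, 18.01 and 17.0 CPM in control iNK. Its iILC1 groups overlapped and its iNK groups did not. Of the 19 B lineage markers, 8 were called for a lower genotype effect in iILC1 than in iNK, and the estimates of 18 were lower. The class II genes H2-Ab1, H2-Aa, H2-Eb1 and Cd74 were the markers of that list called in iILC1, all higher in cKO. The part of these marker differences in the Scd1 difference was not tested.

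**Figure D3:**
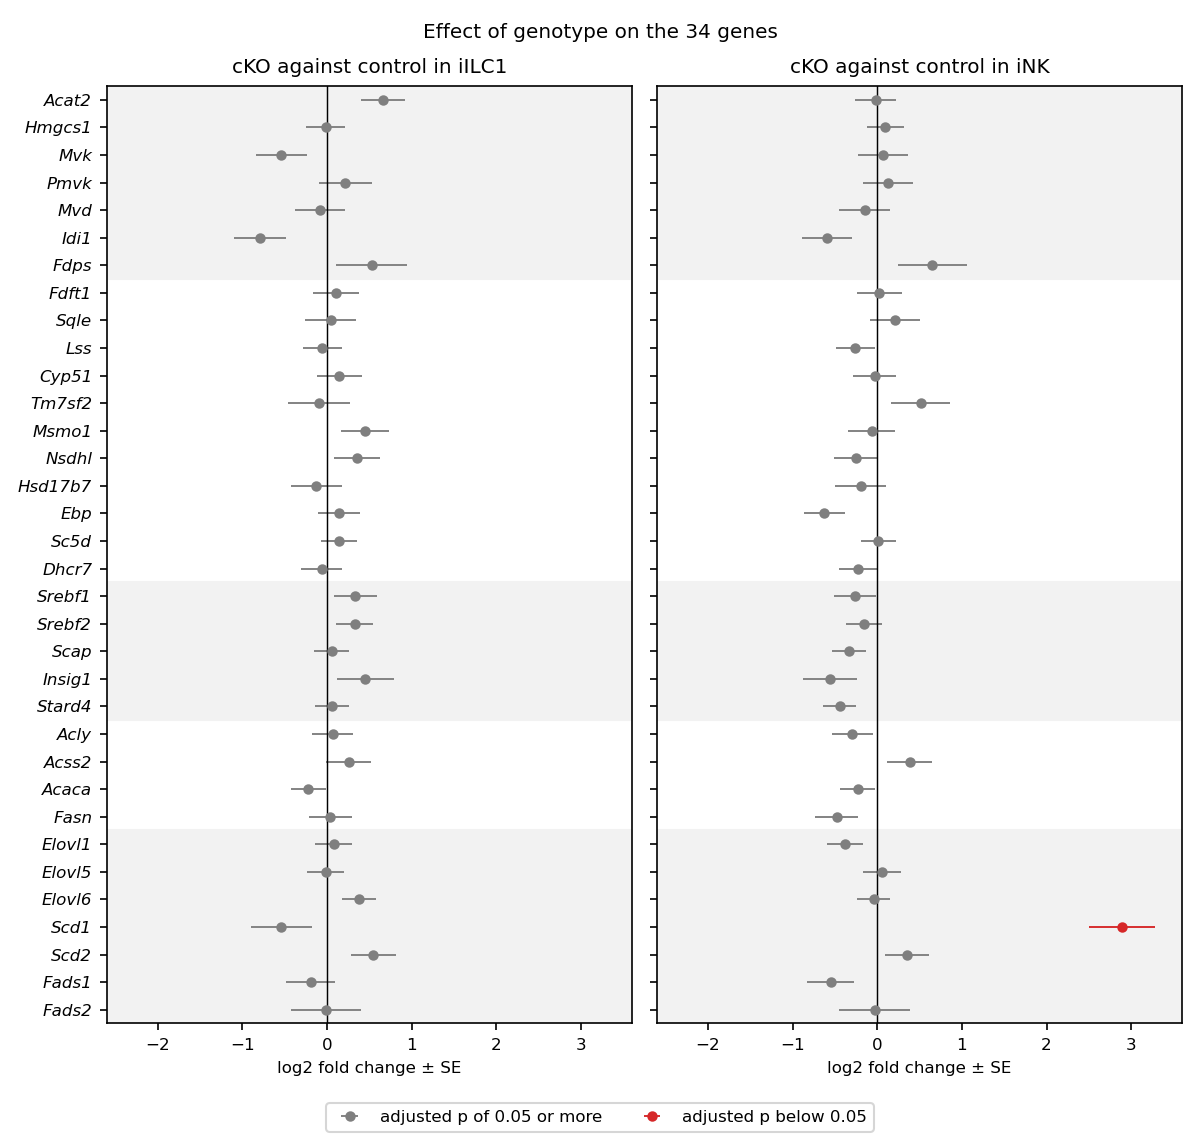
Log2 fold change of cKO against control for the 34 genes, with its SE from edgeR, in iILC1 on the left and in iNK on the right, in bands by pathway step. Scd1 in iNK (2.89) is the only gene past the adjusted threshold, drawn in red, and no gene is past it in iILC1.

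Scd1 and Scd2 encode enzymes of the same activity, so their balance was compared per kb of exon. Scd1 made up 2.39%, 2.67%, 3.74% and 5.09% of the summed Scd1 and Scd2 level in cKO iILC1, and 7.19%, 5.76% and 8.26% in control iILC1. It made up 3.72%, 5.87%, 5.95% and 3.02% in cKO iNK, and 0.669%, 0.662% and 1.40% in control iNK. Scd2 was thus the more abundant transcript in every library, and the Scd1 share was lower in cKO than in control in iILC1 and higher in cKO than in control in iNK, without overlap in either cell type. These shares are a description and were not tested.

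The comparison of cell types gave calls at the same 3 genes, Scd1, Scd2 and Elovl6, in both genotypes. Scd2 (ENSMUSG00000025203, mm10 chr19:44293676-44306864, plus strand) had 156, 101, 120 and 112 CPM in cKO iILC1, against 464, 243, 368 and 330 CPM in cKO iNK. No library overlapped, and Scd2 was 2.87-fold lower in cKO iILC1 than in cKO iNK (-1.52 ± 0.24 SE on the log2 scale, adjusted p 0.000109 by edgeR). In control, Scd2 had 85.1, 95.4 and 71.1 CPM in iILC1, against 314, 360 and 152 CPM in iNK, and was 3.29-fold lower in iILC1 (-1.72 ± 0.29 SE, adjusted p 0.000395). Within each genotype every iILC1 library was below every iNK library, and the genotype effects on Scd2 in the cell types differed by 0.19 ± 0.37 SE (adjusted p 0.894).

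Elovl6 (ENSMUSG00000041220, mm10 chr3:129532360-129638500, plus strand), whose promoter is shown above, followed the same order. It had 45.4, 46.8, 42.8 and 37.8 CPM in cKO iILC1, against 74.9, 66.0, 86.7 and 82.8 CPM in cKO iNK (log2 fold change -0.85 ± 0.18 SE, adjusted p 0.00429 by edgeR). In control it had 40.1, 29.2 and 30.6 CPM in iILC1, against 86.7, 84.8 and 67.8 CPM in iNK (-1.27 ± 0.22 SE, adjusted p 0.000524). The iILC1 and iNK libraries did not overlap in either genotype. ELOVL6 lengthens palmitate to stearate, the chain that SCD enzymes then desaturate. The genotype effect on Elovl6 was 0.38 ± 0.20 SE in iILC1 (adjusted p 0.979) and -0.04 ± 0.20 SE in iNK (adjusted p 0.977).

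Scd1 ran in opposite directions between the cell types in the 2 genotypes. In cKO it was 3.85-fold lower in iILC1 than in iNK (-1.94 ± 0.32 SE on the log2 scale, adjusted p 0.000141 by edgeR). In control it was 2.80-fold higher in iILC1 than in iNK (1.48 ± 0.41 SE, adjusted p 0.0378). The summed receptor level was 2126, 2988 and 2836 CPM in control iILC1, against 1358, 1567 and 2435 CPM in control iNK, with overlapping ranges. With that level as a covariate, Scd1 was not called between cell types in control (adjusted p 0.153 by edgeR). The call in control rested on counts of 20, 26 and 31 in iILC1 and 12, 13 and 12 in iNK. It was lost when any of the 6 control libraries was left out (adjusted p 0.0578 to 0.145), although the groups did not overlap. The order of the group means was cKO iNK (14.8 ± 4.82 CPM, SD, n = 4), control iILC1 (5.57 ± 0.355, n = 3), cKO iILC1 (3.83 ± 1.22, n = 4) and control iNK (1.97 ± 0.136, n = 3). Of the neighbours in that order, cKO iILC1 and control iILC1 overlapped in their libraries.

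Members called between cell types were 3 of 34 in cKO (0 higher and 3 lower in iILC1), where 3.42% of all genes were called and 6.40% of genes whose mean reached 10 CPM. They were 3 of 34 in control (1 higher and 2 lower in iILC1), where 3.91% of all genes were called and 8.07% of genes whose mean reached 10 CPM. The members' share of calls, 8.82% in each genotype, thus lay near that of genes whose mean reached 10 CPM. Not every member reached that mean, and the called member Scd1 did not, so the sets are not matched in abundance. Libraries did not overlap for 4 members in cKO, where this held for 6.61% of all genes, and for 14 members in control, where it held for 25.0%. In cKO these were Stard4, higher in iILC1, and Elovl6, Scd1 and Scd2. In control, Lss, Hsd17b7 and Scd1 were higher in iILC1 and 11 were lower, among them Ebp, Acly and Fasn. The member median was -0.08 in cKO, against 0.01 over all genes and -0.05 over genes whose mean reached 10 CPM. In control it was -0.28, against 0.16 over all genes and -0.29 over genes whose mean reached 10 CPM, so the member median and that of abundant genes were close. The summed level of the receptor genes was 2126 to 2988 CPM in control iILC1, against 1358 to 2435 CPM in control iNK, and these ranges overlapped. With the summed receptor level as a covariate the control medians were -0.09 for the members and 0.0028 over all genes.

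**Figure D4:**
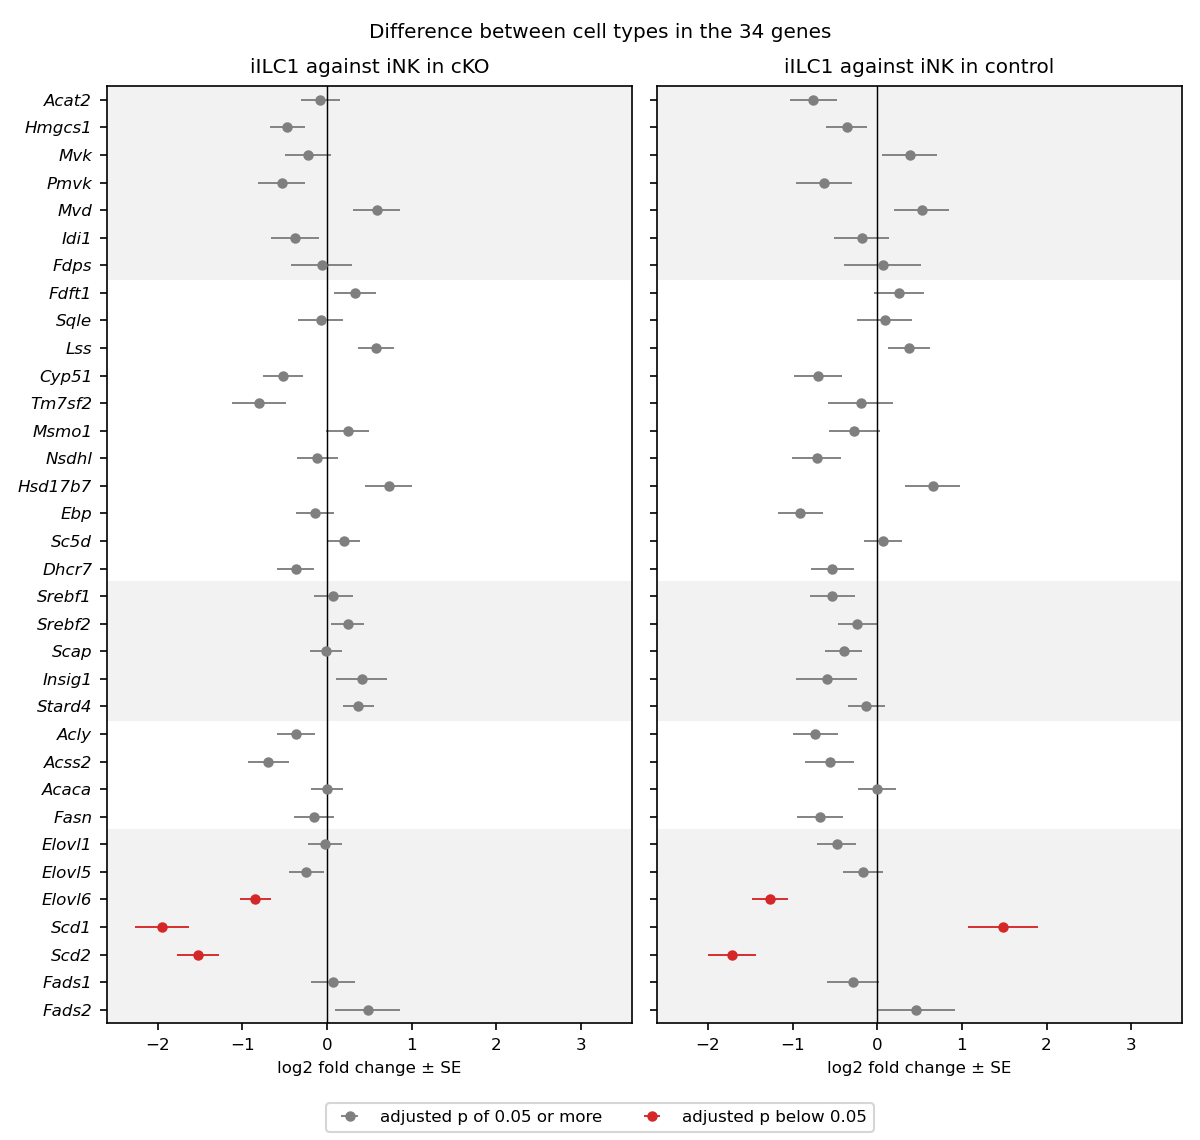
Log2 fold change of iILC1 against iNK for the 34 genes, with its SE from edgeR, in cKO on the left and in control on the right, in bands by pathway step. Scd2 and Elovl6 lie left of 0 and past the adjusted threshold (red) in both genotypes, while Scd1 is at -1.94 in cKO and at 1.48 in control.

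Among the sterol genes, Ebp came nearest to the threshold without passing it. In control it had 47.7, 34.6 and 47.1 CPM in iILC1, against 82.8, 90.1 and 69.6 CPM in iNK, without overlap (log2 fold change -0.91 ± 0.27 SE, adjusted p 0.0510 by edgeR). In cKO it had 69.6, 48.2, 34.2 and 37.8 CPM in iILC1, against 61.8, 36.5, 43.4 and 67.4 CPM in iNK, with overlapping groups (-0.14 ± 0.23 SE, adjusted p 0.980). Its promoter, shown above, holds 2 CCAAT boxes and 1 GC box. In control all 5 sensing and transport genes and all 4 chain synthesis genes had lower estimates in iILC1, as did 71.0% of genes whose mean reached 10 CPM, and none passed the test. Acly, at -0.73 ± 0.26 SE (adjusted p 0.114), passed in 4 of 15 alternatives (DESeq2, the 5 CPM filter, the replicate block and without control iNK replicate 3, adjusted p 0.0288 to 0.0415), and Fasn passed in 1, the replicate block (adjusted p 0.0459). With upper-quartile factors Stard4 and Acaca turned to higher. The summed level of the chain synthesis genes was 682 to 887 CPM in control iILC1, against 915 to 1409 CPM in control iNK. In cKO it was 703 to 1075 CPM in iILC1, against 778 to 1262 CPM in iNK, with overlap. The mevalonate genes gave no call in either genotype, and Hmgcs1 had a log2 fold change of -0.47 ± 0.21 SE in cKO (adjusted p 0.384) and -0.36 ± 0.24 SE in control (adjusted p 0.392).

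Cell division genes differed between the cell types in the same direction as Scd2 and Elovl6, as did the summed level of the myeloid markers. Over all genes, 3.42% were called between cell types in cKO and 3.91% in control. Of 35 cell division genes, 21 were called lower in iILC1 than in iNK in cKO and 31 in control, with 0 called higher in either. All 35 estimates were lower in both genotypes. The cell division sums were 1245 to 1581 CPM in cKO iILC1, 1497 to 2055 in control iILC1, 2243 to 2855 in cKO iNK and 3923 to 5757 in control iNK. Of 16 myeloid markers 15 were tested, and single markers were mixed. Estimates in iILC1 were lower for 9 and higher for 6 in cKO, and lower for 11 and higher for 4 in control. The dendritic and myeloid integrin gene Itgax was called lower in iILC1 in cKO. In control, Itgax and S100a8, a neutrophil gene, were called lower and Csf1r, a macrophage receptor gene, was called higher (S100a8 was not called with upper-quartile factors). The myeloid sums were 308 to 609 CPM in cKO iILC1, 315 to 455 in control iILC1, 629 to 964 in cKO iNK and 482 to 1089 in control iNK, without overlap between cell types within either genotype, and no myeloid marker was at 0 in all libraries of a group. The stroma and fat sums ran the other way, at 339 to 425 CPM in cKO iILC1, 295 to 323 in control iILC1, 245 to 303 in cKO iNK and 203 to 232 in control iNK. Single markers were mixed in cKO. Estimates of the 13 in iILC1 were higher for 8 and lower for 5 in cKO, and higher for 12 and lower for 1 in control. Vcam1 and Lpl were called higher in iILC1 in cKO and Cxcl12 in control (not called with RLE factors). Of the 19 B lineage markers, 2 were called higher and 8 lower in iILC1 in cKO, and 4 were called higher and 0 lower in control. Estimates were higher for 4 and lower for 15 in cKO, and higher for 18 and lower for 1 in control. H2-Aa and Cd74 were called higher in iILC1 in both genotypes. No erythroid and megakaryocyte marker passed the test between cell types. Of the 12 T cell markers 11 were tested, and 4 were called higher in iILC1 in cKO and 5 in control, with 0 called lower. Estimates were higher for 6 and lower for 5 in cKO, and higher for 9 and lower for 2 in control. The T cell sums overlapped between cell types in both genotypes. They were 958 to 1907 CPM in cKO iILC1, 1179 to 1806 in control iILC1, 1064 to 1552 in cKO iNK and 1232 to 1941 in control iNK. The part of these differences in the results for Scd2 and Elovl6 was not tested.

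Other genes of both pathways were taken from lists chosen by role. Of 25 further sterol genes and 29 of 30 further fatty acid genes that could be tested, 0 passed the threshold for cKO against control in either cell type or for the difference between them, where 0.408% of all genes were called in iNK, 0.0482% in iILC1 and 0.0778% for the difference. At so low a share 0 calls say nothing particular to these genes. At an unadjusted p under 0.05 the counts in iNK were 0 of 25 and 4 of 29, where 7.87% of all genes reached it, and in iILC1 1 of 25 and 3 of 29, where 4.52% did. The fatty acid counts (13.8% in iNK and 10.3% in iILC1) were above these shares and the sterol counts below them, and neither difference was tested. With DESeq2 the counts past the threshold were 0 of 25 and 1 of 30 in iNK (Lpin1, lower), 0 and 0 in iILC1, and 0 and 0 for the difference.

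Between cell types, 5 of these further genes passed the threshold. They were 1 of 25 sterol and 2 of 29 fatty acid genes in cKO, where 3.42% of all genes and 6.40% of genes whose mean reached 10 CPM were called, and 2 of 25 and 1 of 29 in control, where 3.91% and 8.07% were. The counts are near these shares. Tmem97, a regulator of cholesterol transport, was lower in iILC1 in cKO (-1.23 ± 0.22 SE on the log2 scale, adjusted p 0.000475 by edgeR) and in control (-1.43 ± 0.26 SE, adjusted p 0.000932). Its levels were 7.10 to 10.7 CPM in cKO iILC1, 10.2 to 11.9 in control iILC1, 19.2 to 25.2 in cKO iNK and 27.5 to 33.7 in control iNK, with no overlap between cell types. Npc1, the lysosomal cholesterol exporter, passed in control (-1.20 ± 0.22 SE, adjusted p 0.000940) and had an adjusted p of 0.0627 in cKO (-0.62 ± 0.18 SE). Lpin1, a phosphatidate phosphatase, was likewise lower in iILC1 in control (-1.25 ± 0.25 SE, adjusted p 0.00275), and in cKO it was at -0.74 ± 0.21 SE (adjusted p 0.0539). In cKO, Acsl3, a long-chain acyl-CoA synthetase, was lower in iILC1 (-0.98 ± 0.27 SE, adjusted p 0.0389), and Dgat1, which makes triacylglycerol, was higher (1.18 ± 0.26 SE, adjusted p 0.00430).

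**Figure D5:**
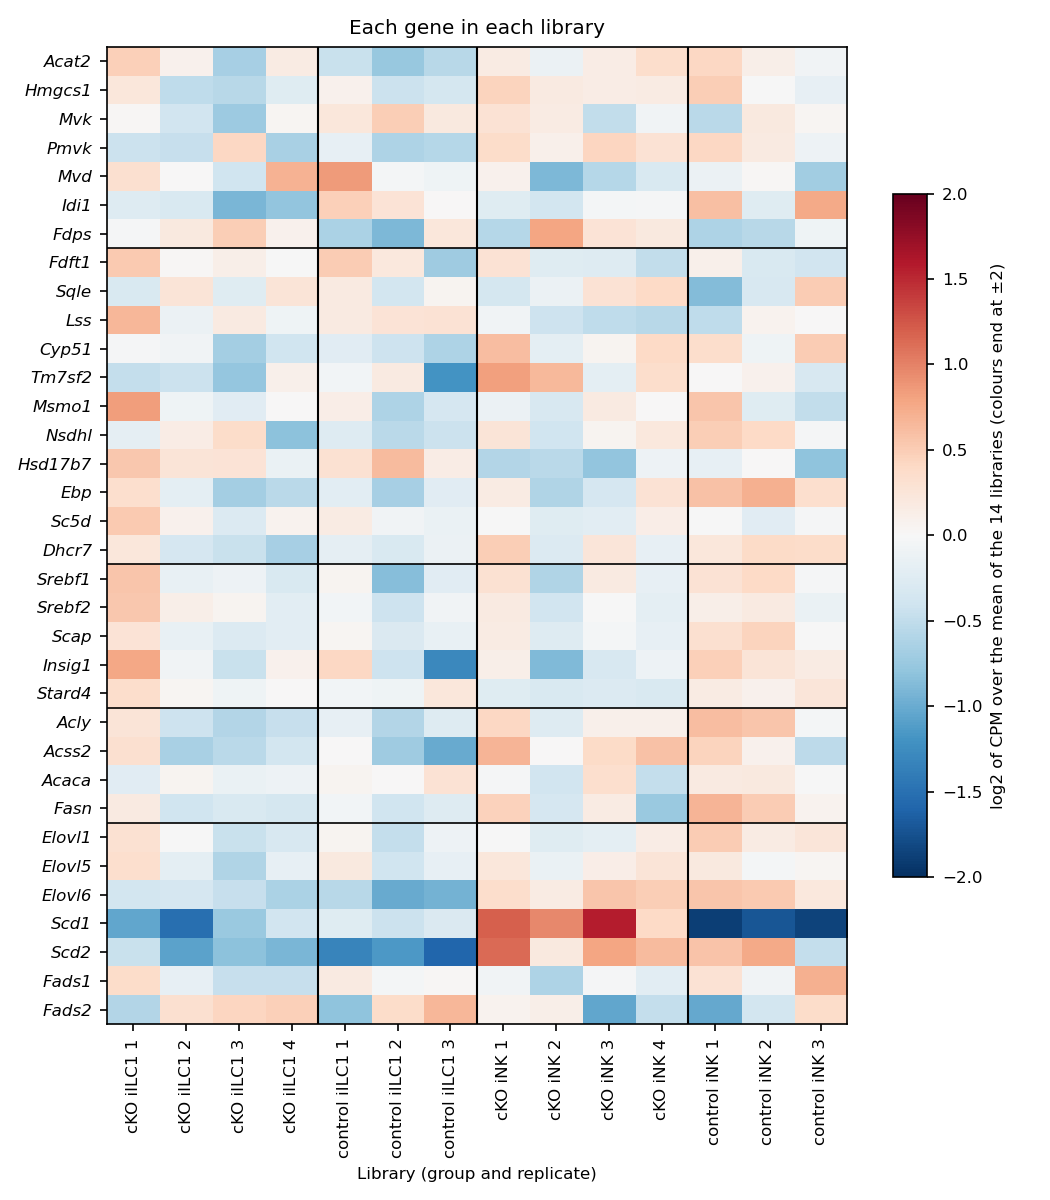
Each of the 34 genes in each of the 14 libraries, as the log2 of its CPM over its mean in the 14 libraries, with vertical lines between groups and horizontal lines between pathway steps. Scd1 and Scd2 have the widest colour range, and cKO iILC1 replicate 1 is the highest of its group for 23 of 34 genes.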

How the data were processed

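RNA was measured in 14 libraries made with SMART-Seq v4 and Nextera XT kits, which do not mark strand, per the labels' protocols. The authors deposited raw read counts per gene, and the submitters' processing notes name the build mm10 and the tools HISAT2 2.1.0 and Trimmomatic 0.33, with Subread 1.6.5 and its featureCounts. How reads that match several genes were counted is not given in the sources used here. Symbols were matched for 98.0% of 46078 genes. Members and lists were chosen with earlier results of these data known.

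Counts were scaled with TMM factors and fitted in edgeR 4.0.16 (R 4.3.3) with 1 mean per group over all 4 groups, after filterByExpr (minimum count 10, minimum total 15). The quasi-likelihood F test was two-sided, with Benjamini-Hochberg adjustment over 26990 genes and a threshold of 0.05. Intervals cover 95% and use the moderated degrees of freedom of the fit. The 4 groups left 10 residual degrees of freedom, with a biological coefficient of variation of 30.0%. The 5 comparisons share groups. Levels are CPM, or CPM per kb of exon length in the file. DESeq2 1.42.0, other scalings, filters, covariates and left-out libraries were alternatives. The scripts were tested on simulated data. All 34 members are named; full values are given for members past the threshold and for the 3 with the smallest p in each comparison. Sequences are from RefSeq and shared sequence was measured on GENCODE M21.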

Additional observations from a re-analysis of the deposited data

Results flagged for a closer look

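In 5 of 68 member groups of 4 libraries, a library stood apart from the rest of its group by Dixon's test, and chance flags about 1 in 20 such groups. In cKO iILC1, replicate 3 had 13.0 CPM of Pmvk, where the other 3 libraries had 6.23 to 7.27 CPM. Replicate 1 of cKO iILC1 had 46.3 CPM of Msmo1, where the others had 22.1 to 26.1 CPM. The same replicate had 452 CPM of Acly, where the others had 251 to 284 CPM, and 428 CPM of Fasn, where the others had 287 to 307 CPM. In cKO iNK, replicate 1 had 68.5 CPM of Hmgcs1, where the others had 56.0 to 57.0 CPM. None of these 5 genes passed the threshold in any of the 5 comparisons. The genotype effect on Scd1 differed between the cell types by -3.43 on the log2 scale, iILC1 minus iNK.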

How the results depend on the processing

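Under every alternative, Scd1 passed the threshold in iNK (16 of 16, log2 fold change 2.68 to 3.11) and for the difference between genotype effects (22 of 22, -3.70 to -3.22). Scd2 and Elovl6 always passed in both cell-type comparisons. Of 366 alternative values of members selected on the main fit, 346 kept direction and side of the threshold (called or not), 9 lost the call and 11 turned direction. The 9 were all Scd1 between cell types in control, whose adjusted p was 0.0569 in a fit of the groups compared alone, 0.153 with receptor background as a covariate, 0.0812 without both libraries lowest on the first component (control iNK replicate 1 and cKO iILC1 replicate 1), and 0.0578 to 0.145 with a control library left out. The 11 were uncalled. Elovl6 in iNK was 0.038 with upper-quartile factors, 0.011 with a filter at 5 CPM, 0.042 with the covariate, 0.026 without both libraries, and -0.13 to 0.042 with 1 library left out (above 0 without control iNK replicate 1 or 2 or cKO iNK replicate 2). The interaction of Scd2 was -0.0075 with upper-quartile factors, -0.21 with the covariate, -0.048 without both libraries and -0.083 to 0.48 with 1 library left out (below 0 without control iNK replicate 2). The cause of these changes was not tested.

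Members called in iNK were 2 with the covariate, which added Acss2 (0.67, adjusted p 0.0157 by edgeR). In control between cell types they were 6 with DESeq2, 5 with the 5 CPM filter, 6 with the replicate block and 2 to 4 with a library left out. In cKO between cell types they were 7 with the covariate, 5 without both libraries and 3 to 4 with a library left out. Outside the 366 values, Ebp passed in control in 8 of 15 alternatives, and Acss2 in cKO in 7 of 17. Upper-quartile factors moved the median of all genes in control between cell types to 0.39, with the member median at -0.05, and turned the member median to -0.02 for the interaction. The member median for genotype in iILC1 (0.06) turned to -0.04 with upper-quartile factors, -0.01 with the 5 CPM filter, -0.02 with the covariate, -0.05 without both libraries and -0.05 without cKO iILC1 replicate 1. In control between cell types the covariate moved the member median to -0.09 and that of all genes to 0.0028.

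Over all genes, calls in iNK were 290 with DESeq2, 191 with no filter, 210 with the 5 CPM filter, 220 in a fit of the groups compared alone, 382 with the covariate and 63 (without cKO iNK replicate 3) to 87 with a library left out. In iILC1 they were 42 with DESeq2, 22 with upper-quartile factors, 47 with no filter, 30 with the 5 CPM filter, 50 with the covariate and 4 (without control iILC1 replicate 3) to 22 (without cKO iILC1 replicate 4) with a library left out. For the interaction they were 38 with DESeq2, 56 with no filter, 33 with the covariate and 10 (without control iILC1 replicate 3) to 33 (without cKO iILC1 replicate 4) with a library left out. Between cell types they were 2203 with DESeq2, 1593 with the 5 CPM filter, 1696 in a fit of the groups compared alone and 394 (without control iILC1 replicate 2) to 1701 (without control iNK replicate 3) with a library left out in control, and 1659 with the covariate in cKO. With the replicate number as a block they were 175 in iNK, 30 in iILC1, 40 for the interaction and 2212 between cell types in control. Samples with the same number deviated together with correlations of -0.09 to 0.35. Between cell types in control these were 0.24, -0.02 and 0.14 for replicates 1, 2 and 3. There, iILC1 replicates 1 and 3 correlated most with the iNK sample of their own number. The highest correlation (0.35) joined samples of different genotype, replicate 1 of cKO iILC1 and replicate 1 of control iILC1. That cKO sample also correlated most with its own number. The main fit did not pair samples, and whether numbers mark pairs is not known.

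Depth limits low genes. Scd1 had 12 to 13 counts per control iNK library, and 7 to 14 members lay within the receptor background in each group.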
